A study of Homo sapiens with 4 samples.

Results

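The genes of cholesterol synthesis and of its control by SREBP2 were examined in 22Rv1 cells, an established line of castration-resistant prostate cancer, after 12 h with 40 nM JMC45 or with the vehicle DMSO. The set was fixed as 27 genes by symbol: 19 enzymes of the pathway, 6 genes that control SREBP2 and 2 genes of intracellular sterol transport. All 27 were found among 63241 Ensembl genes with values, and all 27 were among the 14018 genes tested, which had a mean of at least 1 TPM over the 4 libraries. TPM, the unit of all values, is a length-scaled share of a library. There were 2 libraries of vehicle and 2 of JMC45, which the labels describe as targeting CDK9. The series title names a CDK9 degrader, D45, and since target, dose and time are the same, D45 and JMC45 were taken as 1 compound. CDK9 is the kinase that releases paused RNA polymerase II. All cells grew in medium with fetal bovine serum. Whether the libraries of a group stem from separate cultures is not in the labels, and the p-values reflect the spread of these 4 libraries alone, which may be technical.

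Cholesterol is built from acetyl-CoA through mevalonate and farnesyl diphosphate to squalene, which is closed to lanosterol and then trimmed to cholesterol. Most genes of the pathway are targets of SREBP2, a transcription factor made as a membrane protein of the endoplasmic reticulum. When sterols are scarce, SCAP carries SREBP2 to the Golgi, where the proteases MBTPS1 and MBTPS2 release its active part. When sterols are plentiful, INSIG1 and INSIG2 hold SCAP back. In prostate cells cholesterol is a component of membranes and the precursor from which androgens can be made.

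With JMC45 the transcripts of the pathway changed unequally, by -2.20 to 0.80 on a log2 scale. All genes tested spread more widely, between -5.5 and 7.5. Of the 27 genes 3 rose on TPM, namely the lanosterol synthase LSS, the mevalonate pathway decarboxylase MVD and SREBF2, which encodes SREBP2. A further 19 fell, among them the squalene epoxidase SQLE, the mevalonate kinase MVK and the SREBP2 retention gene INSIG2, and 5 did not pass the test. The test was limma on log2(TPM + 1), with Benjamini-Hochberg adjustment over all genes tested and a threshold of 0.05. Among all genes tested 4.25% were called higher and 80.7% lower, against 11.1% and 70.4% of the 27. Without vehicle replicate 1 only 1 of the 27, LSS, was called higher, and with 1 library left out in turn 18 to 20 were called lower. The median change of the 27 was -0.69, against -1.10 over all genes tested, and 15 of the 27 lay above that median. Called at least 2-fold lower were 12 of the 27, or 44.4%, against 54.3% of all genes tested. In 3 of the 27 genes both JMC45 libraries lay above both vehicle libraries and in 21 below, where 6.28% and 85.7% of all genes tested did so.

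These counts are on a relative scale, and the direction of many genes depends on it. The mitochondrially encoded genes took 20.4% and 20.1% of TPM in vehicle and 26.6% and 29.3% in JMC45. The part of this larger share in the values below was not tested beyond the 2 alternatives that set it aside. Leaving these genes out gave a median over all genes of -1.04, and holding their total equal gave -1.47, against -1.10 on TPM. Median-of-ratios scaling, which sets the typical gene equal in all libraries, moved the median over all genes to -0.02. Its values are called rescaled TPM below. On that scale 15 of the 27 genes were called higher and 5 lower, where 34.9% and 35.5% of all genes tested were, and the median of the 27 was 0.61. The change of each gene described below is therefore given on TPM first and on rescaled TPM second, and a value without a sign is an increase unless the sentence calls it a decrease. No spike-in was analysed here, so fewer transcripts per cell, fewer expressing cells and a smaller share of the library cannot be told apart.

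**Figure D1:**
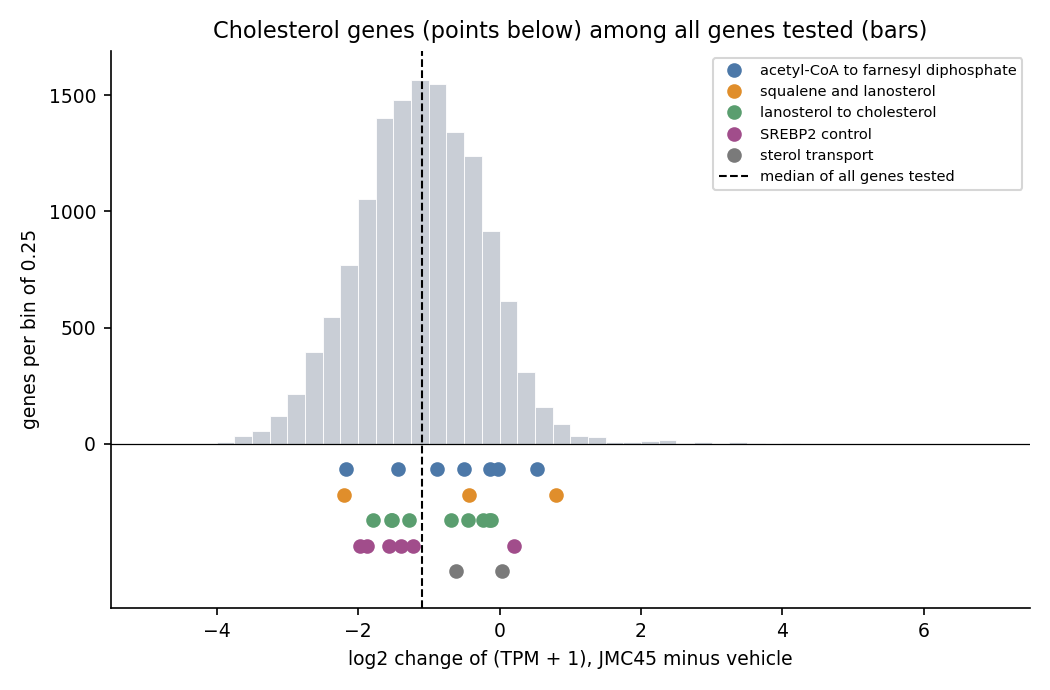
Log2 change of (TPM + 1), JMC45 minus vehicle, for all 14018 genes tested (grey bars, genes per bin of 0.25) and for the 27 cholesterol genes (points, coloured by step of the pathway and set below the bars). The dashed line is the median of all genes tested, -1.10. Points spread from SQLE at -2.20 to LSS at 0.80, and 5 of the 6 genes of SREBP2 control lie left of the line.

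The libraries carried the markers of the labelled cells. The 10 luminal prostate markers included keratins and prostate lineage genes. They summed to 1477 and 1456 TPM in vehicle and to 717.5 and 704 TPM in JMC45. On TPM 8 of the 10 (80.0%) fell, near the 80.7% of all genes tested. On rescaled TPM 6 were called higher and 4 lower, where 34.9% and 35.5% of all genes tested were. Leukocyte markers summed to at most 1.71 TPM, endothelial markers to at most 0.01 TPM and fibroblast markers to at most 3.57 TPM in any library, and the T cell gene CD3E and the endothelial cadherin CDH5 were listed at 0 in all 4. Across genes, log2(TPM + 1) correlated at r = 0.984 between the vehicle libraries, at 0.985 between the JMC45 libraries and at 0.892 to 0.90 between groups. The depth behind these values is unknown, since TPM does not retain it.

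The stretches before the transcription start were read for the 3 genes that rose and for the 3 with the largest decreases among those with an entry in RefSeq's table of promoters (GRCh38.p14), because genes of 1 pathway here went in opposite directions. Each runs 5′ to 3′ on the gene's strand, from 180 to 31 bases before the start, with capitals for CCAAT boxes (CCAAT on either strand, the letters that NF-Y binds) and for the sterol element TCACNCCAC (either strand), a core of the sites that SREBP2 binds. Genes with several entries are shown by the entry listed first.
LSS, chr21:46228805-46228954, minus strand: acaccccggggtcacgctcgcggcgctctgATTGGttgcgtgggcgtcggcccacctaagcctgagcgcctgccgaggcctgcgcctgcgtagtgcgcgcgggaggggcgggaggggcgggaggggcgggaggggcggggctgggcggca
MVD, chr16:88663122-88663271, minus strand: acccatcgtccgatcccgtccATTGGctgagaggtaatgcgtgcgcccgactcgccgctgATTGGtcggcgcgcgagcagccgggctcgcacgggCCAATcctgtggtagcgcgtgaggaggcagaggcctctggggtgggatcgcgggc
SREBF2, chr22:41832925-41833074, plus strand: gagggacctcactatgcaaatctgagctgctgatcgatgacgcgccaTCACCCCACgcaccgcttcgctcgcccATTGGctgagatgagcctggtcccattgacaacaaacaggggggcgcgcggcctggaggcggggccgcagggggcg
MVK, chr12:109573614-109573763, plus strand: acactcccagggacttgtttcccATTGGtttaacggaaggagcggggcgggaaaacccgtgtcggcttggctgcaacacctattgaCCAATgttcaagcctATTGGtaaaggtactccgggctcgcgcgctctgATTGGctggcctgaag
MBTPS2, chrX:21839437-21839586, plus strand: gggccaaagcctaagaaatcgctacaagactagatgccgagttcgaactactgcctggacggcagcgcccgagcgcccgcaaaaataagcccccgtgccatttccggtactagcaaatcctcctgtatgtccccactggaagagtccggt
INSIG2, chr2:118088291-118088440, plus strand: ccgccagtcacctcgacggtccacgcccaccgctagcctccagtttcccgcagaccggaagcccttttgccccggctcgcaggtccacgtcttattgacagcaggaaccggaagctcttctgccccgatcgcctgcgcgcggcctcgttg

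SREBF2 alone among the 24 genes with an entry held the exact sterol element, as TCACCCCAC starting 133 bases before its start. That element was in 1.13% of the 35116 promoter windows of the table (250 bases before to 50 after a start) and in 1 of the 30 windows of these genes. CCAAT boxes were in 34.6% of all windows and in 18 of the 30, the GC box GGGCGG in 45.0% and in 25, and the E-box CACGTG in 7.26% and in 5. By gene, a CCAAT box was held by all 3 genes that rose, by all 5 that did not pass and by 8 of the 16 with an entry that fell. The GC box was likewise held by 3, 5 and 12 of these genes. The shares of all windows are per window, so they are no background for counts by gene. Both kinds of gene carried CCAAT boxes: MVK, which fell, shows 4 in the stretch above and MVD, which rose, shows 3, whereas MBTPS2 and INSIG2 show none. All motifs were searched on both strands, and none of these letters contains another. Sites that differ from the letters given were not counted, so a gene without a match may still hold such a site. ACAT2, FDFT1 and SQLE had no entry and were not searched. The matches describe letters only, and binding was not measured here.

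The first steps, from acetyl-CoA to farnesyl diphosphate, held both a gene that rose and one of the large decreases. MVD, the decarboxylase that makes isopentenyl diphosphate, measured 42.0 and 44.4 TPM in vehicle and 69.8 and 56.1 TPM in JMC45. Both JMC45 libraries lay above both vehicle libraries, and MVD rose by 0.53 (SE 0.11, limma adjusted p = 0.00529), or 1.85 on rescaled TPM. Its call was lost without vehicle replicate 1 (0.49, adjusted p = 0.0634) and when the mitochondrial transcripts were scaled to 1 common total in every library, called equal mitochondrial totals below (0.07), and its adjusted p ran from 6.49e-05 to 0.663 over the 13 alternatives. MVK, the kinase that acts on mevalonate first, measured 19.3 and 17.5 TPM in vehicle and 3.86 and 2.81 TPM in JMC45. The groups were far apart, and MVK fell by 2.17 (SE 0.15, limma adjusted p = 4.16e-05) and by 0.99 on rescaled TPM. PMVK, the kinase of the next step, lay between these neighbours. It had 93.3 and 90.4 TPM in vehicle and 51.6 and 46.9 TPM in JMC45, a decrease of 0.89 on TPM and an increase of 0.45 on rescaled TPM, called higher.

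HMGCS1, the synthase of HMG-CoA and a classical SREBP2 target, held its share of the library within the spread. Its vehicle libraries had 125.5 and 104.2 TPM and its JMC45 libraries 115.3 and 109.7 TPM, so that the JMC45 values fell between those of vehicle. The change was -0.02 (SE 0.10, adjusted p = 0.832). Leaving out vehicle replicate 1 gave 0.11, leaving out JMC45 replicate 2 gave 0.01, and rescaled TPM gave 1.32, called higher. FDPS, farnesyl diphosphate synthase, was the most abundant of the 27 per length, at 364.9 and 394.3 TPM in vehicle and 359.6 and 332.5 TPM in JMC45. Although its groups did not overlap, FDPS missed the threshold (-0.13, adjusted p = 0.122), and on rescaled TPM it was called higher (1.22). ACAT2, the cytosolic thiolase that opens the pathway, went from 104.8 and 106.9 TPM to 75.8 and 73.5 TPM, a decrease of 0.50 on TPM that turned into an increase of 0.84 on rescaled TPM, called higher. IDI1, the isomerase of isopentenyl diphosphate, went from 101.8 and 94.0 TPM to 37.8 and 33.8 TPM and fell by 1.43, with -0.10 on rescaled TPM, which did not pass. Of these 7 genes 1 (14.3%) rose, 4 (57.1%) fell and 2 did not pass, with a median of -0.50. Over all genes tested 4.25% rose and 80.7% fell.

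**Figure D2:**
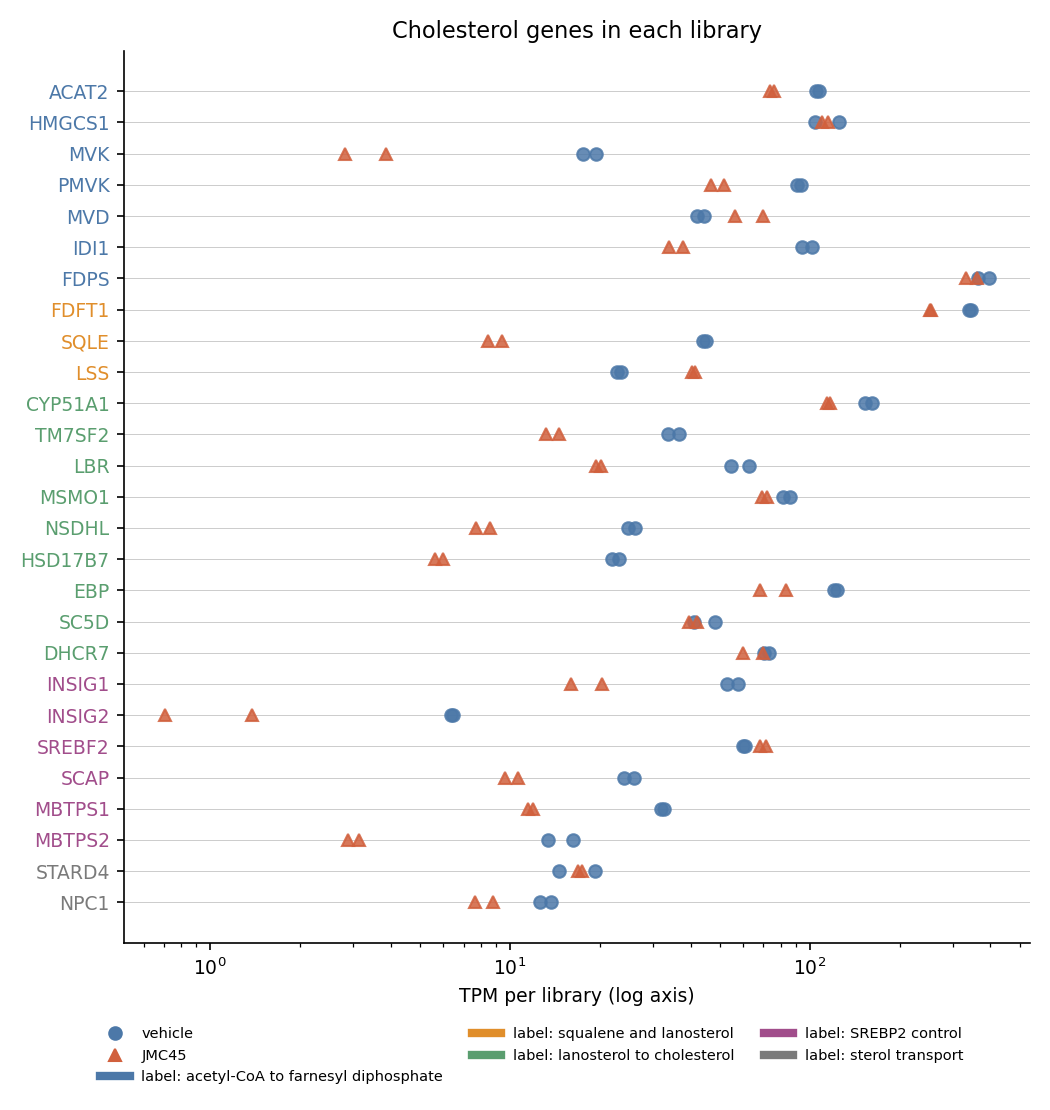
TPM of each of the 27 genes in each library, on a log axis, in pathway order from top to bottom; circles are the 2 vehicle libraries and triangles the 2 JMC45 libraries, and gene names are coloured by step. Triangles lie right of circles for MVD, LSS and SREBF2, between the circles for HMGCS1 and STARD4, on both sides of the lower circle for SC5D, and furthest left of them for INSIG2, MVK, SQLE and MBTPS2.

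The 3 enzymes that make squalene and close it to lanosterol showed the widest contrast. SQLE, the epoxidase that is a slow, regulated step, measured 44.2 and 44.9 TPM in vehicle and 9.40 and 8.44 TPM in JMC45. It fell by 2.20 (SE 0.09, limma adjusted p = 1.11e-05), the largest decrease of the 27 on this scale though not with a pseudocount of 0.1, where INSIG2 changed by -2.57, MVK by -2.44 and SQLE by -2.31, and by 0.92 on rescaled TPM. LSS, which acts on the very product of SQLE, measured 22.7 and 23.4 TPM in vehicle and 41.3 and 40.5 TPM in JMC45. It rose by 0.80 (SE 0.07, limma adjusted p = 0.000119), a change above that of 98.5% of genes tested, and by 2.11 on rescaled TPM. The LSS call held in all 13 alternative settings, with changes from 0.35 under equal mitochondrial totals to 2.11. FDFT1, squalene synthase, went from 338.4 and 343.9 TPM to 253 and 251.3 TPM, a decrease of 0.43 on TPM that turned into an increase of 0.91 on rescaled TPM, called higher.

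Of the 9 enzymes from lanosterol to cholesterol none rose on TPM, 7 (77.8%) fell and 2 did not pass, with a median of -0.69. Among all genes tested 4.25% were called higher and 80.7% lower, so these counts are near that background. HSD17B7, the ketone reductase of the demethylation cycle, went from 23.2 and 22.0 TPM to 6.0 and 5.64 TPM. It fell by 1.79 (SE 0.10, limma adjusted p = 1.99e-05) and was the one enzyme of this stage still called lower on rescaled TPM (-0.55). NSDHL, the dehydrogenase of the same cycle, went from 24.7 and 26.1 TPM to 8.58 and 7.71 TPM and fell by 1.53 (-0.27 on rescaled TPM, not passing). MSMO1, the monooxygenase of that cycle, kept far more of its level, with 85.6 and 81.2 TPM in vehicle and 71.8 and 69.2 TPM in JMC45. Its decrease of 0.24 (limma adjusted p = 0.0151) was lost without vehicle replicate 1 (-0.20), without JMC45 replicate 2 (-0.21), without the intensity trend (-0.24) and with TPM recomputed without mitochondrially encoded genes (-0.09). On rescaled TPM MSMO1 was called higher (1.10).

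LBR and TM7SF2 encode sterol reductases for the same double bond, and LBR also ties the inner nuclear membrane to lamins and chromatin. LBR had 62.6 and 54.6 TPM in vehicle and 20.2 and 19.4 TPM in JMC45, and TM7SF2 had 36.7 and 33.6 TPM and then 13.2 and 14.5 TPM. They fell by 1.52 and 1.28, with -0.20 and 0.01 on rescaled TPM, neither of which passed. CYP51A1, the lanosterol demethylase, went from 160.8 and 152.8 TPM to 114.4 and 116.9 TPM, a decrease of 0.44 on TPM that turned into an increase of 0.91 on rescaled TPM, called higher. EBP, the sterol isomerase, went from 120.5 and 123.4 TPM to 83.5 and 68 TPM, a decrease of 0.69 on TPM and an increase of 0.65 on rescaled TPM, called higher. The last desaturase, SC5D, had 48.1 and 41.1 TPM in vehicle and 39.6 and 42.0 TPM in JMC45. Its groups overlapped, and the change was -0.12 (adjusted p = 0.272) on TPM and 1.20, called higher, on rescaled TPM. DHCR7, the dehydrocholesterol reductase that ends the pathway, had 70.4 and 73.3 TPM in vehicle and 69.7 and 59.7 TPM in JMC45. At -0.15 it missed the threshold (adjusted p = 0.158) but passed without JMC45 replicate 1 (-0.26, adjusted p = 0.0374, within a range of 0.000149 to 0.922 over the alternatives), and it was called higher on rescaled TPM (1.18).

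Under equal mitochondrial totals the 4 enzymes that had missed the threshold were called lower, with changes of -0.48 for HMGCS1, -0.59 for FDPS, -0.57 for SC5D and -0.61 for DHCR7. Summed over the 19 enzymes, the pathway held 1889 and 1872 TPM in vehicle and 1445 and 1359 TPM in JMC45, or 0.189% and 0.187% against 0.144% and 0.136% of all TPM. The log2 change of the sum was -0.42, beside a median of -0.50 over the single enzymes. By stage the sums changed by -0.32 up to farnesyl diphosphate, by -0.44 for squalene and lanosterol and by -0.58 from lanosterol on. The sum over all 19 was 0.93 on rescaled TPM. Over the 27 genes the change correlated weakly with the vehicle level (Spearman's rho 0.341, across genes, which are not independent replicates and share the same 4 libraries), against -0.0761 over all genes tested. With the length of the gene it did not go together in either set (rho -0.0629 and 0.00119). The genes spanned a median of 22.7 kb and had a median of 10 exons, against 27.8 kb and 8 exons for tested genes with a GENCODE entry.

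**Figure D3:**
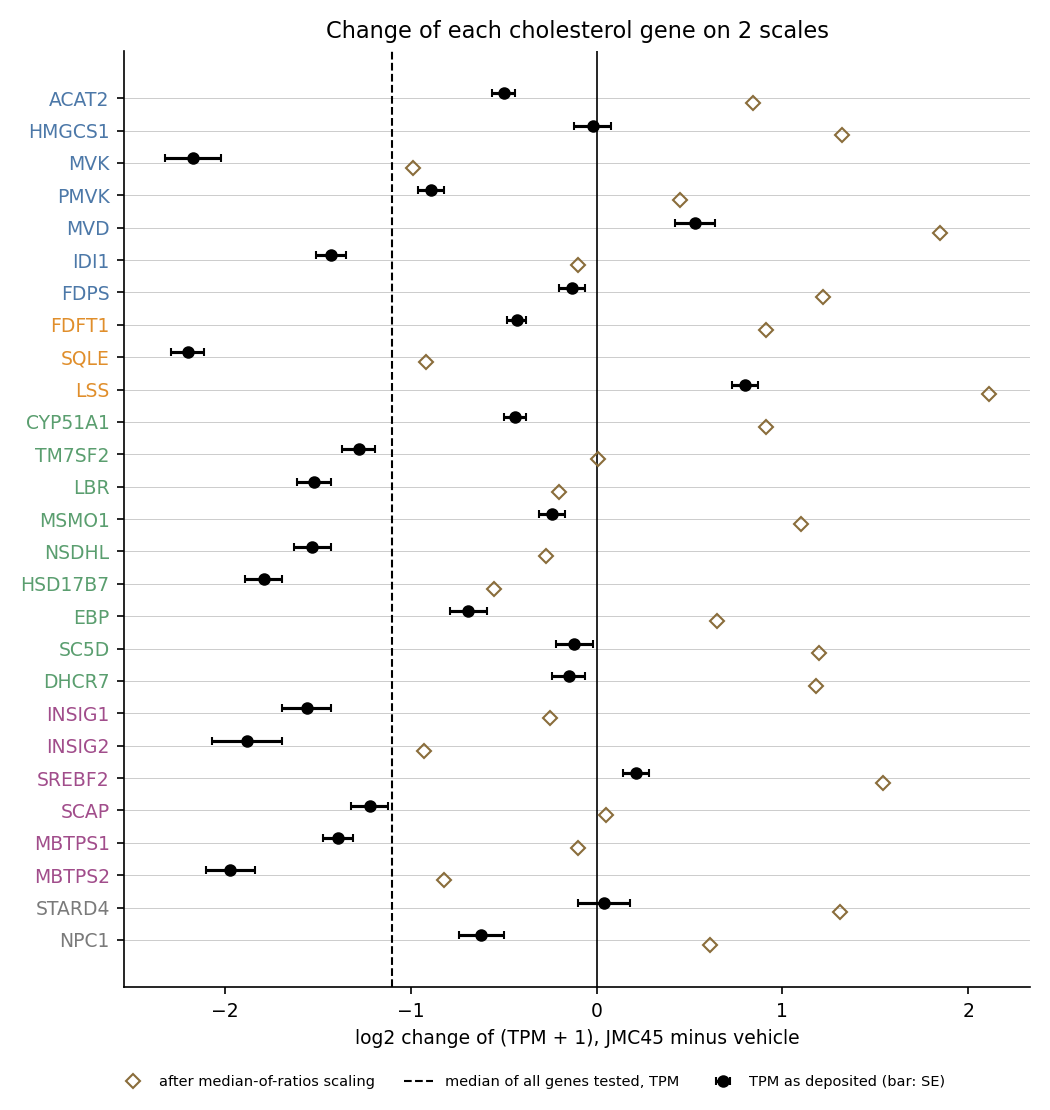
Log2 change of (TPM + 1), JMC45 minus vehicle, of each gene on TPM as deposited (filled circles, bars are limma's SE) and on rescaled TPM (open diamonds), with gene names coloured by step as in the plot of TPM. The dashed line marks the median of all genes tested on TPM, -1.10. Rescaling moves every gene to the right, so that MVK, SQLE, HSD17B7, INSIG2 and MBTPS2 are the 5 genes still called lower.

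Of the 6 genes that control SREBP2, 1 rose and 5 fell on TPM. SREBF2 measured 59.7 and 61.0 TPM in vehicle and 68.2 and 71.2 TPM in JMC45, with both JMC45 libraries above both vehicle libraries. It rose by 0.21 (SE 0.07, limma adjusted p = 0.0255), a change above that of 94.2% of genes tested, and by 1.54 on rescaled TPM. Its call was lost without vehicle replicate 1 (0.19, adjusted p = 0.0796), without vehicle replicate 2 (0.22, 0.0567), without JMC45 replicate 2 (0.17, 0.111) and without the intensity trend (adjusted p = 0.0888), and adjusted p ran from 6.63e-05 to 0.111 over all alternatives. Under equal mitochondrial totals the change of SREBF2 was -0.25 (adjusted p = 0.0522).

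The other 5 control genes fell on TPM, a share of 83.3% lower that is near the 80.7% of all genes tested. Each fell by more than 1, so 83.3% were at least 2-fold lower, against 54.3% of all genes tested. On rescaled TPM 2 of the 6 were called lower, where 35.5% of all genes were. INSIG1, a retention factor and itself an SREBP2 target, measured 57.6 and 52.8 TPM in vehicle and 20.3 and 16.0 TPM in JMC45. It fell by 1.56 (SE 0.13, limma adjusted p = 6.95e-05), with -0.25 on rescaled TPM, which did not pass (adjusted p = 0.0919). INSIG2, its paralog, was the least abundant of the 27, at 6.35 and 6.45 TPM in vehicle and 0.71 and 1.38 TPM in JMC45. It fell by 1.88 on the log2(TPM + 1) scale, which understates the change at such levels, and its mean TPM in JMC45 was 16.3% of that in vehicle. On rescaled TPM INSIG2 was still lower (-0.93). SCAP, the escort, went from 24.0 and 25.8 TPM to 10.7 and 9.62 TPM, a decrease of 1.22 on TPM, whereas on rescaled TPM the sign turned (0.05) and the call was lost. MBTPS1, the protease of the first cut, went from 32.7 and 31.8 TPM to 11.5 and 12.0 TPM and fell by 1.39 (-0.10 on rescaled TPM, not passing). MBTPS2, the protease of the second cut inside the membrane, went from 16.2 and 13.4 TPM to 3.13 and 2.89 TPM and fell by 1.97, and by 0.82 on rescaled TPM.

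Sterol transport was represented by STARD4 and NPC1. STARD4, a soluble carrier that moves cholesterol between membranes and an SREBP2 target, had 19.1 and 14.6 TPM in vehicle and 17.4 and 16.9 TPM in JMC45. The JMC45 values lay between those of vehicle, and STARD4 missed the threshold (0.04, adjusted p = 0.806). It was -0.15 without vehicle replicate 2, -0.40, called lower, under equal mitochondrial totals and 1.31, called higher, on rescaled TPM. NPC1, the lysosomal membrane protein that exports cholesterol, had 12.6 and 13.7 TPM in vehicle and 7.63 and 8.80 TPM in JMC45. It fell by 0.62 (limma adjusted p = 0.0027) on TPM and was called higher on rescaled TPM (0.61).

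Ratios between genes of the same library avoid the question of scaling, because a factor common to a library cancels. The pairs were chosen after their values were seen. LSS had 0.513 and 0.521 times the TPM of SQLE in vehicle and 4.39 and 4.80 times in JMC45, an 8.88-fold change of the ratio between enzymes of consecutive steps. MVD stood at 2.18 and 2.53 times MVK in vehicle and at 18.1 and 20.0 times in JMC45, an 8.09-fold change. SREBF2 went from 2.48 and 2.36 times SCAP to 6.39 and 7.41 times, and from 1.04 and 1.16 times INSIG1 to 3.35 and 4.46 times. Against its paralog SREBF1 it went from 0.897 and 1.06 times to 2.47 and 2.72 times. For each of the 6 ratios computed the groups did not overlap. A two-sided exact permutation test gives p = 0.333 to any such separation, the lowest possible with 2 libraries against 2. Since the pairs were chosen on these same values, that p cannot decide if the ratios differ. A ratio shows unequal change, not which of its genes changed.

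**Figure D4:**
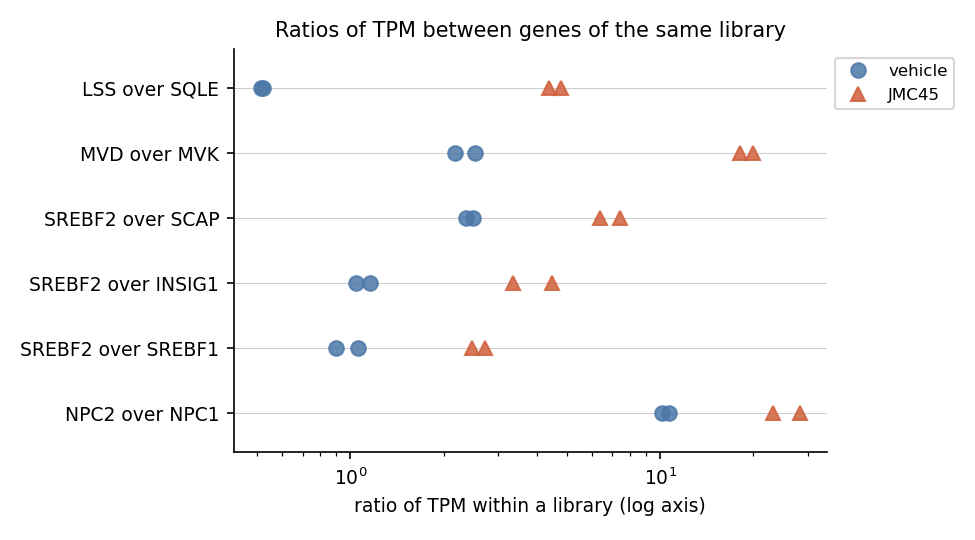
Ratio of the TPM of 2 genes within each library, on a log axis, for 6 pairs; circles are the 2 vehicle libraries and triangles the 2 JMC45 libraries. In every pair both triangles lie right of both circles, furthest for LSS over SQLE and for MVD over MVK.

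Lists of genes around the pathway were examined for context. Their counts stand against 4.25% higher and 80.7% lower of all genes tested on TPM, 34.9% and 35.5% on rescaled TPM, and an all-gene median of -1.10. The shares lower of the first 4 lists on TPM, 93.3%, 83.3%, 93.8% and 81.2%, were near or somewhat above that background. Of 15 genes of the isoprenoid branches, which draw on farnesyl diphosphate and its precursors for prenyl groups, dolichol and ubiquinone, 14 fell on TPM and none rose, with a median of -1.31, and on rescaled TPM 3 were called higher and 5 lower. The 3 most abundant were RABGGTB, of the Rab prenyltransferase (-2.32, and -1.01 on rescaled TPM), FNTA, a subunit of farnesyltransferase (-1.98 and -0.68), and the prenylcysteine methyltransferase ICMT (-1.50 and -0.19, the latter not called). Of 12 genes of the COPII coat, which carries SCAP and SREBP2 out of the endoplasmic reticulum with other cargo, 10 fell and none rose, with a median of -0.97, whereas on rescaled TPM 7 were higher and 3 lower. SEC13 and SEC23B changed by -1.18 and -0.68 (0.15 and 0.65 on rescaled TPM), and the GTPase SAR1A by -0.18, which did not pass (adjusted p = 0.0633). SAR1A was called lower without vehicle replicate 2 (-0.23, adjusted p = 0.0477) and under equal mitochondrial totals (-0.63, 0.00079) but higher on rescaled TPM (1.15, 7.71e-05) and after quantile normalization (0.74, 0.000411), and adjusted p reached 0.705 over the alternatives.

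Here too counts stand against 80.7% lower and 4.25% higher of all genes tested on TPM, and 35.5% and 34.9% on rescaled TPM. Of 16 genes of the sterol-regulated degradation machinery of the endoplasmic reticulum 15 (93.8%) fell and none rose. Their median was -1.21, against -1.10 over all genes, and on rescaled TPM 6 of the machinery's genes were higher and 5 lower. Its most abundant genes, the segregase VCP, its cofactor UFD1 and the membrane protein AUP1, changed by -0.59, -0.77 and -1.26 (0.75, 0.56 and 0.06 on rescaled TPM). Of 20 genes of sterol efflux, storage and trafficking 16 were tested, of which 13 (81.2%) fell and 1 (6.25%) rose, with a median of -1.32. On rescaled TPM 7 of these were higher and 7 lower. The one that rose was NPC2, the soluble lysosomal protein that hands cholesterol to NPC1. It measured 134.6 and 138.1 TPM in vehicle and 215.5 and 204.2 TPM in JMC45 and rose by 0.62 (SE 0.06, limma adjusted p = 0.000153), a call lost under equal mitochondrial totals (0.16) and kept on rescaled TPM (1.96). NPC2 went from 10.7 and 10.1 times the TPM of NPC1 to 28.2 and 23.2 times. The lipoprotein receptor SCARB1 changed by 0.03, which did not pass and was -0.09 without JMC45 replicate 1. It was called lower under equal mitochondrial totals (-0.43) but higher on rescaled TPM (1.36). The sterol-binding protein OSBP fell by 1.36 on TPM, a call that was lost on rescaled TPM (-0.05).

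Of 7 genes of SREBP1 and fatty acid synthesis 3 (42.9%) rose and 3 (42.9%) fell, with a median of 0.00. Over all genes tested 4.25% rose and 80.7% fell, with a median of -1.10. On rescaled TPM 5 of the 7 were higher and none lower, where 34.9% and 35.5% of all genes tested were. The desaturase SCD had 86.4 and 82.2 TPM in vehicle and 214.4 and 192.4 TPM in JMC45 and rose by 1.26 (limma adjusted p = 2.52e-05), and by 2.60 on rescaled TPM. Fatty acid synthase, FASN, had 62.2 and 60.7 TPM and then 127.4 and 103.4 TPM and rose by 0.89, and by 2.23 on rescaled TPM. ACACA, acetyl-CoA carboxylase, rose by 0.20 (adjusted p = 0.0354, from 5.62e-05 to 0.129 over the alternatives). Its call was lost without vehicle replicate 2 (0.15), without JMC45 replicate 1 (0.22), without JMC45 replicate 2 (0.19) without the low-value filter (adjusted p = 0.059), without the intensity trend (0.103) and with the replicate number as a block (0.0568), and its change was -0.25 under equal mitochondrial totals and 1.53 on rescaled TPM. ACLY, which supplies acetyl-CoA to both pathways, changed by -0.33 on TPM and by 1.01 on rescaled TPM, called lower and higher.

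**Figure D5:**
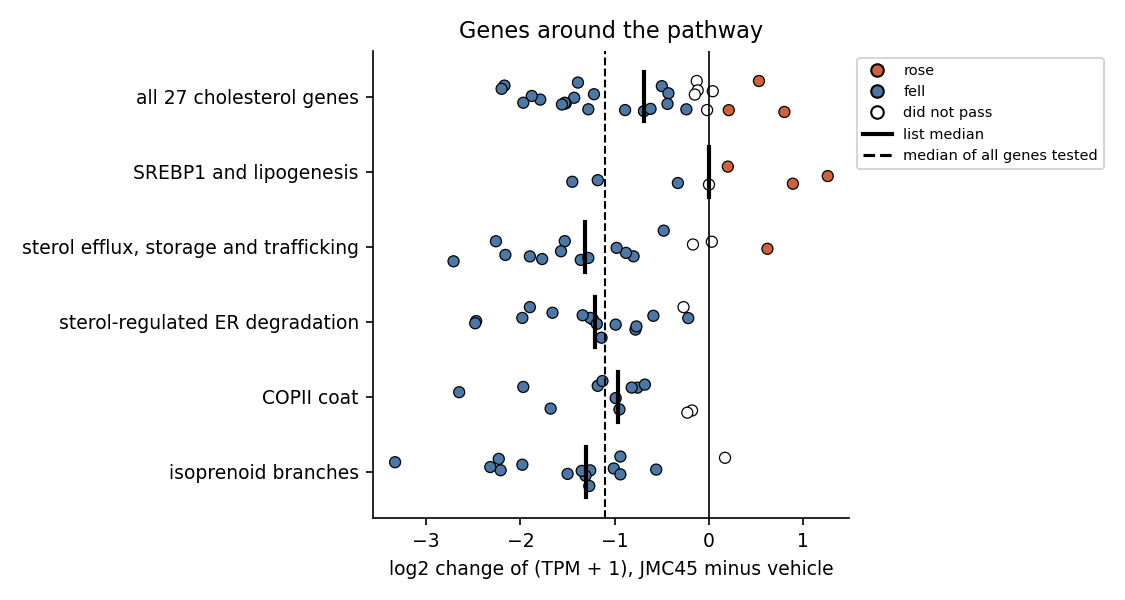
Log2 change of (TPM + 1), JMC45 minus vehicle, of the tested genes of each list (points spread vertically at random), with red for genes that rose, blue for genes that fell and white for genes that did not pass. Thick bars are list medians, from -1.32 to 0.00, and the dashed line is the median of all genes tested, -1.10.

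Several genes share their locus. In GENCODE release 29, ACAT2 overlaps TCP1 (281.6 and 290.3 TPM in vehicle), MVK overlaps MMAB (75.2 TPM in both) and NPC1 overlaps RMC1 (27.6 and 29.3 TPM), each on the opposite strand. TM7SF2 overlaps VPS51 (51.3 and 47.2 TPM) on its own strand, as MBTPS2 does YY2. YY2 had 3.59 and 2.61 TPM in vehicle and 4.62 and 3.86 TPM in JMC45, the latter above the values of MBTPS2. SCAP overlaps the pseudogene AC099778.2 on the opposite strand, which had 4.9 and 0 TPM in vehicle and 0 and 7.3 TPM in JMC45. The library kit was stranded, and no source used here states if strand entered the quantification. The values of these genes, SCAP included, are therefore uncertain. Other antisense RNAs at these loci had at most 12.2 TPM in any library. Pseudogenes named after IDI1, FDPS, CYP51A1 and HSD17B7 had at most 2.30 TPM in any library.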

How the data were processed

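Poly(A)-selected RNA of 4 libraries was sequenced with a stranded kit, per the labels' protocols. The deposited values are TPM per Ensembl gene, per the file headers. fastp, HISAT2 and StringTie are named, without versions or roles, per the submitters' processing notes. No source used here names the build or annotation, and the only coordinates printed are those of RefSeq's promoter table. Columns named CTL were taken as the vehicle libraries of the same numbers, and 50 lines without values were left out.

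Log2(TPM + 1) of the 14018 genes with a mean of at least 1 TPM was tested with limma 3.58.1 in R 4.3.3 (two-sided, intensity trend, no replicate block, Benjamini-Hochberg over all genes tested, threshold 0.05). Members and lists were chosen with earlier results of these data known. All members are named, and of each further list the 3 most abundant genes and any called higher. Alternatives were a pseudocount of 0.1, no filter, a mean of at least 5 TPM, median-of-ratios scaling, quantile normalization, leaving out the mitochondrially encoded genes or holding their total equal, no trend, a replicate block, and each library left out. Gene lengths and overlaps came from GENCODE release 29. Tables were made with pandas 2.3.3 and numpy 2.4.6 in Python 3.11.15, and figures with matplotlib 3.10.9.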

Additional observations from a re-analysis of the deposited data

How the results depend on the processing

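Of the 27 genes 8 kept direction and call under median-of-ratios scaling, 11 under quantile normalization and 20 under equal mitochondrial totals, but all 27 with a pseudocount of 0.1, without the low-value filter and with the replicate block. At a mean of at least 5 TPM, 26 genes were tested and kept theirs. Numbers called higher and lower were 4888 and 4981 of all genes under median-of-ratios scaling, 4716 and 4603 under quantile normalization, and 181 higher under equal mitochondrial totals, against 596 and 11311 on TPM. For the cholesterol genes they were 15 and 5, 10 and 8, and 1 higher. Median-of-ratios scaling gave 3 and 5 for the isoprenoid branches, 7 and 3 for the COPII coat, 6 and 5 for sterol-regulated degradation, 7 and 7 for efflux, storage and trafficking, 5 and 0 for SREBP1 and lipogenesis. Quantile normalization gave 4 and 6 for the isoprenoid branches, 5 and 4 for the COPII coat, 4 and 7 for sterol-regulated degradation, 6 and 7 for efflux, storage and trafficking, 5 and 0 for SREBP1 and lipogenesis. Under equal mitochondrial totals 0 genes of efflux, storage and trafficking were higher, and with mitochondrially encoded genes left out 1 isoprenoid gene was. The summed enzymes changed by 0.93 under median-of-ratios scaling, -0.28 without mitochondrially encoded genes and -0.89 under equal mitochondrial totals, and by -0.47 to -0.38 with a library left out. Leaving out a library gave 1 to 3 cholesterol genes higher, the lowest without vehicle replicate 1, and 18 to 20 lower.

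Signs turned as follows. Under median-of-ratios scaling changes were 0.84 for ACAT2, 1.32 for HMGCS1, 0.45 for PMVK, 1.22 for FDPS, 0.91 for FDFT1, 0.91 for CYP51A1, 0.01 for TM7SF2, 1.10 for MSMO1, 0.65 for EBP, 1.20 for SC5D, 1.18 for DHCR7, 0.05 for SCAP, 0.61 for NPC1, 0.15 for SEC13, 0.65 for SEC23B, 1.15 for SAR1A, 0.75 for VCP, 0.56 for UFD1, 0.06 for AUP1 and 1.01 for ACLY. With quantile normalization they were 0.16 for ACAT2, 0.55 for HMGCS1, 0.22 for FDPS, 0.07 for CYP51A1, 0.49 for MSMO1, 0.84 for SC5D, 0.63 for DHCR7, 0.06 for SCAP, 0.72 for NPC1, 0.18 for SEC23B, 0.74 for SAR1A, 0.04 for UFD1 and 0.30 for ACLY. Equal mitochondrial totals gave -0.25 for SREBF2, -0.40 for STARD4, -0.43 for SCARB1 and -0.25 for ACACA, and leaving out the mitochondrially encoded genes gave 0.12 for HMGCS1, 0.01 for FDPS and 0.02 for SC5D. Leaving out vehicle replicate 1 gave 0.11 for HMGCS1, vehicle replicate 2 -0.15 for STARD4 and 0.00 for SCARB1, JMC45 replicate 1 -0.09 for SCARB1 and JMC45 replicate 2 0.01 for HMGCS1. With a library left out HMGCS1 ranged from -0.16 to 0.11, STARD4 from -0.15 to 0.23 and SCARB1 from -0.09 to 0.14. Why they turned was not tested, beyond the factor each scaling applies. A fit without 1 library assumes that the lone library varies like the other group. Replicate numbers are shared between groups, but deviations of same-numbered libraries correlated at -0.0471, so the numbers were not taken to pair libraries. The replicate block called 613 genes higher and 11380 lower, and among the named genes only ACACA lost its call in it. TPM carries no depth, so what depth limits cannot be given.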
